A study of Mus musculus with 18 samples.

Results

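The transcriptome of wild-type prefrontal microglia was described from the 6 WT-Veh libraries of a series of 18 libraries. These were the vehicle-treated wild-type samples, chosen by their labels alone. Wild-type mice on a C57BL6/J background received a daily subcutaneous injection of vehicle from postnatal day 30 to day 51, and carried no 16p11 duplication. Cells positive for CD11b, CD45 and P2ry12 were then sorted from the medial prefrontal cortex (mPFC) by fluorescence-activated cell sorting (FACS). No source says whether a library came from a single mouse or a pool, so the spread between libraries may hold animal, sort and amplification differences, which cannot be told apart.

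Microglia are the resident macrophages of the brain. They depend on signalling through the CSF1 receptor and on TGF-beta, survey their surroundings through purinergic receptors such as P2ry12, and digest what they engulf in lysosomes. In the healthy brain they carry a homeostatic signature that includes Tmem119, P2ry12 and Sall1, a transcription factor needed for that state. Factors such as PU.1, encoded by Spi1, hold the macrophage program in place, and PU.1 belongs to the ETS family, which binds DNA at a core of GGAA.

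All values below are scaled CPM, that is counts divided by a library size that was multiplied by a scaling factor, as CPM, or their log2. Of 22428 genes in the table, 6562 had a count in all 6 libraries, 6359 in 1 to 5 of them, and 9507 in none. Total counts per library were 7045444 to 15459286. Between 73.7% and 79.0% of reads were mapped, and reads on introns made up 63.6% to 69.2% of mapped reads, against 32.1% to 37.7% on exons, classes that overlap. Replicate 6 had the most counts and stood apart from the other libraries. It had a count for 12350 genes against 8814 to 9537 in the others, and 1224 genes were counted there only, against 63 to 107 in each of the others. Reduced by calculation to the 10563536 counts of replicate 2, replicate 6 would still be expected to hold 12241 genes. The scaling factors also differed, from 0.769 in replicate 2 and 0.851 in replicate 1 to 1.25 in replicate 6. On the log2 scale these factors were -0.38 in replicate 2 and 0.33 in replicate 6, relative to the plain total. Counts are divided by the scaled size. These factors therefore shift the CPM of all genes of a library alike, up in replicate 2 and down in replicate 6. For some genes the plain CPM (counts per plain library total) is given too. For others the order of libraries can also turn on these factors. Cst3, for instance, was lowest in replicate 6 in scaled CPM but in replicate 2 in plain CPM. Without replicate 6, 6564 genes had a count in every library and 11697 rather than 12921 genes had a count in any. Ddx3y, a helicase gene of the Y chromosome, had a count in every library, at 28.9 to 131 CPM. Genes named here for their own sake follow a rule on rank, spread or list; Ddx3y and Lars2 were added after their values were seen.

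The promoters of P2ry12, used in the sort, of C1qb, a chain of complement C1q, and of Sall1 are shown because these genes ranked 13, 14 and 48 of all genes and because each holds the letters GGAAGT, the ETS core and 2 following bases. The 250 bases before the RefSeq start on GRCm38.p6 are given 5′ to 3′ on the strand of the gene, with the motif or its reverse complement in capitals. They lie at chr3:59262986-59263235 for P2ry12, at chr4:136886201-136886450 for C1qb and at chr8:89042863-89043112 for Sall1, each on the minus strand and with no annotated exon of that strand inside.
P2ry12: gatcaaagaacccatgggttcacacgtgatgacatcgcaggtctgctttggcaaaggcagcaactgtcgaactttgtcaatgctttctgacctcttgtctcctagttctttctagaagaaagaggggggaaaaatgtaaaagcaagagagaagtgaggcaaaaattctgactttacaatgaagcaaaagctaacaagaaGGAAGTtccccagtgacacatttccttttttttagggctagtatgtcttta
C1qb: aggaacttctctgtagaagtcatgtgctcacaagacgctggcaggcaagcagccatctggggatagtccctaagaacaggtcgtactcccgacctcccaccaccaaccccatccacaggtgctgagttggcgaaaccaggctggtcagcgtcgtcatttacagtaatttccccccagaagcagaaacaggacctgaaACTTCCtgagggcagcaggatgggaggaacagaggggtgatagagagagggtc
Sall1: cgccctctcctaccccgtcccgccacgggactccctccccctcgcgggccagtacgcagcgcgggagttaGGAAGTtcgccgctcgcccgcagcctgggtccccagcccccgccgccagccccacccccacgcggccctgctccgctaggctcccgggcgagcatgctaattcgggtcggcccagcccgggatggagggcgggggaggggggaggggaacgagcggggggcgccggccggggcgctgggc
Over windows of 300 bases (250 before and 50 after the start), GGAAGT on either strand occurred in 23.8% of 32851 RefSeq windows. It occurred in 30.7% of windows of genes counted in all 6 libraries, in 20.5% of windows of genes counted in none, and in 8 of 24 windows of homeostatic genes. For the 500 and the 100 highest genes it was 26.6% and 30.8% of windows. The longer form GAGGAAGT, which contains it, occurred in 3.20% of all windows. It occurred in 3.56% of windows of genes counted in all 6 libraries and in 5.17% for the 500 highest genes. For the 100 highest genes it was 11 of 107 windows, and for homeostatic genes 0 of the 24 windows. The GC box GGGCGG occurred in 64.1% of windows of genes counted in every library against 24.9% for genes counted in none. These matches describe letters in the windows and not bound sites.

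A small number of transcripts held much of the counts. Rn45s, the precursor of ribosomal RNA, took 9.05% to 12.2% of the counts of a library, and its CPM ranged from 90129 in replicate 5 to 136003 in replicate 2, although its share of counts was highest in replicate 6. Malat1, a nuclear long noncoding RNA, ranged from 20419 to 29835 CPM. The 100 highest genes took 32.5% ± 1.88 of the counts (SD, n = 6), with a range of 29.8% to 34.6%. Between 336 and 413 genes were enough to reach 50% of a library. Protein-coding genes held 82.9% to 87.6% of the counts.

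The first protein-coding gene was Cst3, which encodes cystatin C, a secreted inhibitor of cysteine proteases. Its CPM by replicate was 26815, 17833, 15239, 16669, 15034 and 13134, with replicate 1 above all others. Csf1r, the CSF1 receptor, had 8681, 7708, 6373, 6207, 9274 and 5252 CPM, highest in replicate 5. Ctsd, an aspartic protease of the lysosome, had 6997, 6137, 5970, 6196, 7080 and 5184 CPM, a difference of 1.37-fold between the highest and the lowest library, or 1.51-fold in plain CPM.

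Of the 30 highest genes, 28 were protein-coding, 9 belonged to the list of homeostatic microglia genes, 5 to the lysosome or cathepsin lists and 2 to the complement list. Beside these stood genes of the cytoskeleton. Macf1, which links microtubules to actin, had 3040, 3754 and 6132 CPM as the lowest, median and highest library. Actb, cytoplasmic actin, had 2035, 3007 and 5392 CPM as the lowest, median and highest library. Tmsb4x, which binds actin monomers, had 1671, 2115 and 2948 CPM, and Ssh2, a phosphatase that acts on cofilin, ranged from 1569 to 2804 CPM. Sirpa, the inhibitory receptor for CD47, was even across libraries at 1806 to 2641 CPM. Pag1, a membrane adaptor, was the most uneven of the 30, from 1065 CPM in replicate 3 to 5341 CPM in replicate 2.

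The order within the 30 was mostly not resolved. Only 4 of the 29 differences between neighbours in the order exceeded their own SD across libraries, and those 4 held in all 6 libraries. Among them, Rn45s lay above Malat1 by 2.11 on the log2 scale, Malat1 above Cst3 by 0.61 and Csf1r above Ctsd by 0.19. Between Ctsd and Tmem119, the gene at rank 30, no neighbours differed beyond their spread. Spans of 7 of the 30 genes are overlapped by another protein-coding gene, among them Csf1r, Ctsd and P2ry12, and counting did not use strand, so their reads may be uncertain.

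**Figure D1:**
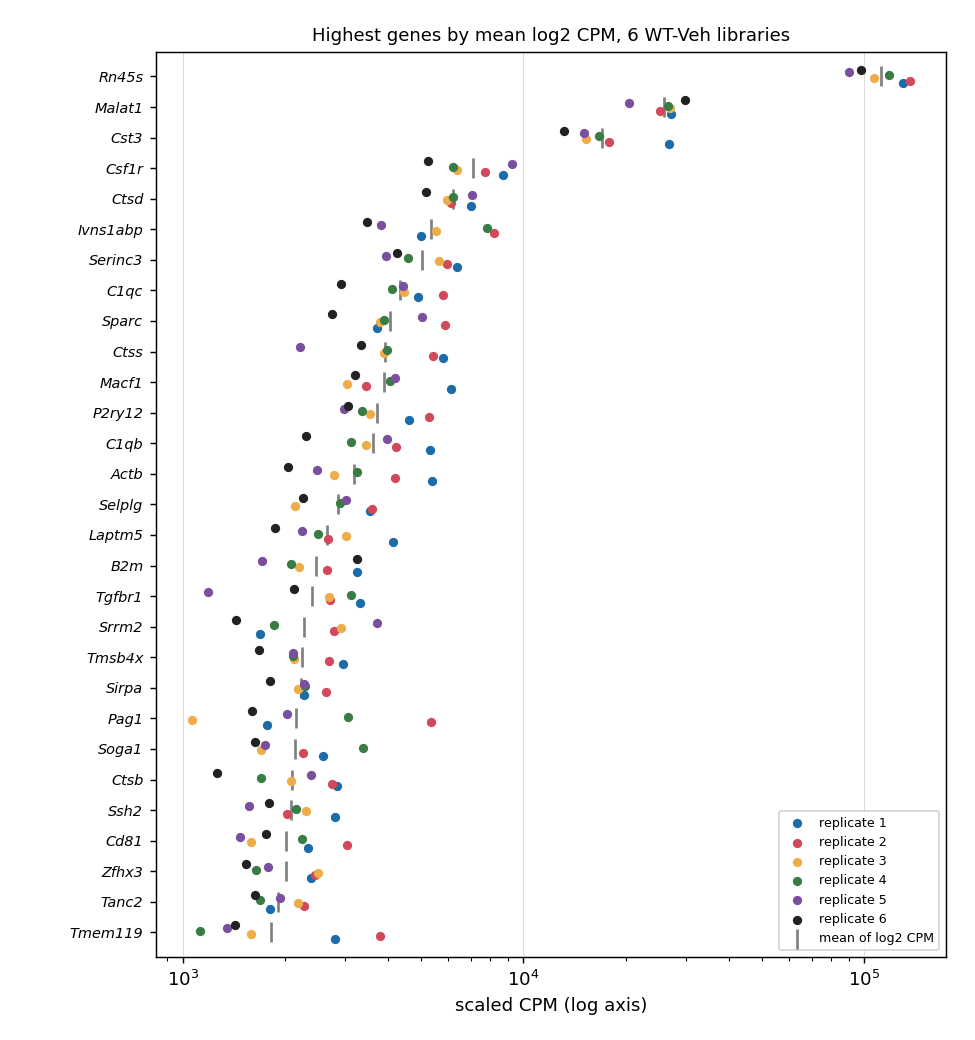
Scaled CPM (log axis) of 29 of the 30 genes with the highest mean log2 CPM; each dot is 1 of the 6 WT-Veh libraries, and the grey bar is the mean of log2 CPM. Rn45s, Malat1 and Cst3 are set apart, with Rn45s between 90129 and 136003 CPM, and the dots of most later neighbours overlap.

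Per kilobase of annotated transcript, short transcripts moved up. Of the 22428 genes, 22066 had an annotated length, and Rn45s, which had none, has no rank on this scale. Among genes with a length Cst3 led with 15272 to 31180 CPM per kb. Malat1, C1qc, C1qb and Ctsd ranked below it in that order, and no neighbours among these 4 differed beyond their spread. Tyrobp, an adaptor that signals for Trem2, moved from rank 68 to rank 10, and Fcer1g, the Fc receptor gamma chain, from rank 62 to rank 12. In contrast, Macf1, with 23495 bp of annotated transcript, moved from rank 12 to rank 222. Of the 15 highest per kb, 13 were among the 30 highest by CPM, but of the 100 highest by CPM only 53 were also among the 100 highest per kb. The median transcript length was 4221 bp in the first set and 1788 bp in the second.

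The homeostatic signature was present in every library. All 28 genes of that list had a count in all 6 libraries and lay among the 2242 highest genes, which are 10% of the table, and 18 were among the 100 highest. Their median was 10.21 log2 CPM, against -3.03 for all genes, and together they took 6.48% ± 0.35 of the counts (SD, n = 6). A gene with no count in any library had a mean of -4.27 log2 CPM, set by the 0.5 counts added, so -3.03 lies close to that floor. P2ry12 had 4622, 5273, 3557, 3361, 2982 and 3056 CPM. Tmem119, a microglial membrane protein, had 2796, 3795, 1584, 1128, 1350 and 1427 CPM, highest in replicates 1 and 2. The other markers of the sort were lower, with Itgam, which encodes CD11b, at 910 to 3461 CPM and Ptprc, which encodes CD45, at 257 to 878 CPM. Siglech, a sialic acid-binding lectin, at 843 to 1263 CPM, and Golm1, a Golgi membrane protein, at 722 to 946 CPM, had the narrowest ranges of the list in scaled CPM, whereas in plain CPM P2ry12 was more even than both, at 2995 to 4054. Rgs10, a regulator of G-protein signalling, Aif1, which encodes Iba1, and Ltc4s, leukotriene C4 synthase, were at the lower end, with medians of 304.51, 292 and 239 CPM.

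Cx3cr1, the receptor for the neuronal chemokine fractalkine, was the exception in this list. It had 163, 4093, 2465, 16.0, 3999 and 110 CPM, so replicates 2, 3 and 5 were high and replicates 1, 4 and 6 low, with no value between 163 and 2465 CPM. The SD of its log2 CPM was 3.33, against 0.16 to 0.87 for the other 27 homeostatic genes. It was also the largest SD among the 517 genes whose mean log2 CPM was 8 or more, where the next was 1.91 for Atxn2l. The value in replicate 4 still rested on 142 counts and the highest on 33237 counts. P2ry12 and Csf1r showed no such split in the same libraries. The annotated span of Cx3cr1 on GRCm38, chr9:119901616-120069879 on the minus strand, is overlapped by 5 other protein-coding genes, and the part of this overlap in the spread was not tested.

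Transcription factors linked to microglia were mostly counted in every library, 19 of 22, with a median of 7.87 log2 CPM. Sall1 led with 1118, 3459, 1158, 1540, 1019 and 975 CPM. Mef2a, a MADS-box factor, was the most even of the list, with 1044, 1375, 1048, 1038, 1020 and 1033 CPM. Its plain CPM was 888, 1057, 1085, 1042, 1024 and 1295, so replicate 2 was highest in scaled CPM and replicate 6 in plain CPM. Spi1 had 201, 119, 515, 230, 601 and 110 CPM, and Irf8, a partner of PU.1, had 174 to 408 CPM. Replicate 2 held the highest value of Sall1, Zeb2 and Sall3 on both scales, and for Zeb2, a zinc finger repressor, it had 1519 CPM against 405 to 636 in the others (1168 against 440 to 639 in plain CPM). At the lower end, Cebpb, a factor of the inflammatory response, had 2.72 to 59.7 CPM. Nr1h3, which encodes the liver X receptor alpha, and Tfec had no count in any library.

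**Figure D2:**
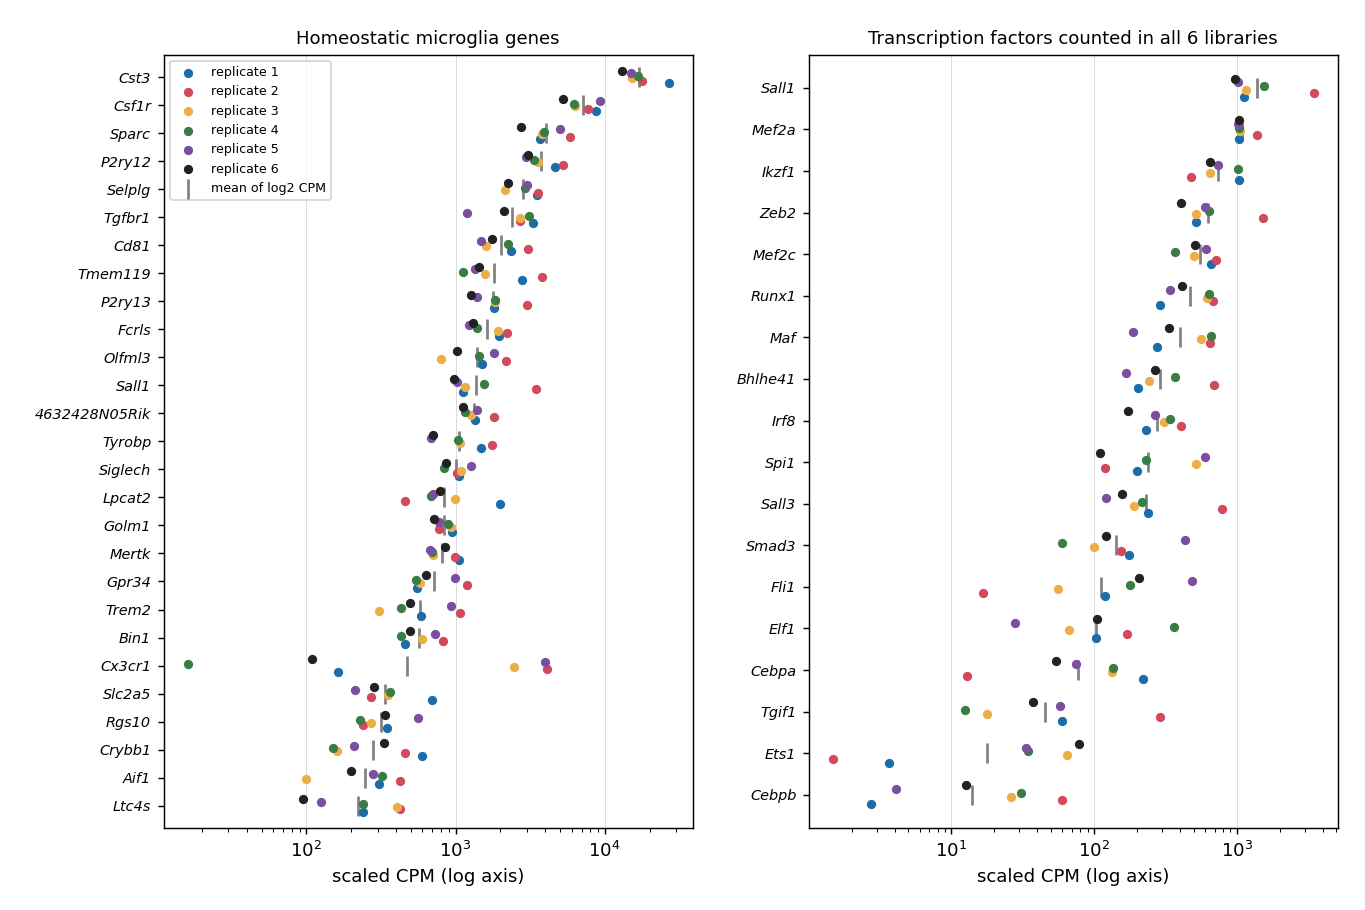
Scaled CPM (log axis) of 27 of the 28 homeostatic genes (left) and 18 of the 19 transcription factors counted in all 6 libraries (right), ordered by mean log2 CPM; each dot is 1 WT-Veh library and the grey bar the mean of log2 CPM. Cx3cr1 spans 16.0 to 4093 CPM while its neighbours in the list stay close, and replicate 2 is highest for Sall1, Zeb2 and Sall3, in plain CPM too.

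The machinery of degradation was strongly represented. Of 27 lysosomal genes, 26 were counted in every library, 21 lay among the 2242 highest genes, and the list took 2.27% ± 0.17 of the counts (SD, n = 6). Laptm5, a lysosomal membrane protein of blood cells, had 1863, 2584 and 4140 CPM as the lowest, median and highest library, and Psap, the precursor of the saposins, had 1245, 1562 and 2367 CPM. Grn, which encodes progranulin, had 1159 to 2354 CPM. Lamp1 had 2820 CPM in replicate 1 and 765 to 1258 CPM in the others. Among the enzymes, Gla, alpha-galactosidase A, was counted in only 3 libraries at up to 1.13 CPM. Tfeb, a regulator of lysosomal genes, ranged from 0.13 to 107 CPM.

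Of 14 cathepsins, 10 were counted in every library and 2 in none. Ctss, a cysteine protease of macrophages, had 5817, 5437, 3910, 3984, 2214 and 3346 CPM, and Ctsb had 1264, 2232 and 2837 CPM as the lowest, median and highest library. Ctsl, another cysteine protease, had 507 to 966 CPM in 5 libraries and 81.3 CPM in replicate 5. Ctsk, known from osteoclasts, and Ctsg, known from neutrophils, had no count. Of the 4 cystatins, Cst3 alone reached the 2242 highest genes, while Cst7, a marker of activated microglia, was counted in 3 libraries at up to 9.19 CPM.

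Complement was present at its first step and in its receptors, but hardly beyond. C1qc had 4897, 5791, 4462, 4105, 4428 and 2918 CPM, C1qb 2302 to 5334 CPM and C1qa 528 to 2028 CPM. Per kilobase C1qa, at a median of 1048.66 CPM per kb, was below C1qb and C1qc, at 3416.86 and 3695 CPM per kb. C3ar1, the receptor for C3a, had 331 to 844 CPM. C3 itself had 1.08 CPM in replicate 6 and no count in the other libraries. C2, Cd55, Cd59a and Serping1 had none in any library, and 9 of the 19 genes were counted in all.

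Receptors differed within each family. Of 15 purinergic genes, 7 were counted in every library and 6 in none. P2ry13, another ADP receptor, had 1275 to 3031 CPM, Entpd1, the ectonucleotidase CD39, had 629 to 1688 CPM, and P2rx7, an ATP-gated channel, had 137 to 452 CPM. P2ry6, the UDP receptor, was uneven at 74.5 to 862 CPM. P2ry1, P2ry2 and the adenosine receptors Adora1, Adora2a and Adora2b had no count, while the adenosine receptor Adora3 had 32.7 to 323 CPM.

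Of 18 genes for Fc receptors and ITAM signalling, 16 were counted in every library. Fcer1g had 950, 1860, 1211, 977, 1365 and 794 CPM, and Trem2, a lipid receptor that signals through Tyrobp, had 587, 1070, 309, 429, 937 and 497 CPM. Syk, the kinase downstream, had 756 CPM in replicate 2 and 112 to 246 CPM in the others. Of 19 genes in the Toll-like receptor list, 17 were counted in every library. Tlr7, a sensor of single-stranded RNA, led with 723 to 1720 CPM, ahead of the accessory proteins Ly86 and Cd180 at medians of 638 and 768 CPM. Tlr4, the receptor for lipopolysaccharide, had 43.7 to 377 CPM. Tlr8 had no count.

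Genes of antigen presentation and inflammatory signalling differed widely in level. Class I presentation was led by B2m, the shared light chain, at 1714 to 3251 CPM, with H2-K1 at 110 to 528 CPM. Of 8 MHC class II genes, 3 were counted in every library. H2-DMa, which helps to load peptides, led with 85.2 to 365 CPM and a median of 138. H2-Oa reached 337 CPM and H2-Aa 160 CPM in single libraries, with medians of 13.6 and 0.062 CPM. Cd74, the invariant chain, had 138 CPM in its highest library and a median of 1.78. Of 20 chemokine and cytokine genes, 5 were counted in every library, among them Tgfb1, a growth factor that sustains microglia, at no less than 52.5 CPM, and Il1a at 11.4 to 55.4 CPM. Il1b reached 3.22 CPM and Tnf 11.2 CPM, each with counts in 2 libraries, and Il10 had none. Of 17 interferon-stimulated genes, 2 were counted in all, among them Rtp4 at 0.76 to 47.4 CPM.

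The list of disease-associated microglia was split. Ctsd, B2m and Ctsb, which are part of it, were among the 30 highest genes. Apoe, the lipid carrier, had 14.1 to 125 CPM, Lpl 31.7 CPM in replicate 6 and at most 1.41 CPM elsewhere, and Clec7a and Igf1 were counted in replicate 6 only, at 2.12 and 1.65 CPM. Of 28 immediate early and stress genes, 14 were counted in every library and they took 0.107% to 0.139% of the counts. Zfp36, which destabilises cytokine mRNA, had 109 to 358 CPM, and Jun had 4.31 CPM in replicate 2 and 101 to 285 CPM in the others. Fos was counted in 2 libraries, with 12.4 CPM in the higher, and Nr4a1 in none. Cell cycle genes were lower still, with 2 of 18 counted in every library, Mki67 at a median of 5.01 CPM and Pcna, a replication clamp, at 38.4 CPM.

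Of the endocannabinoid genes, 8 of 12 were counted in every library. Abhd12, a lysophospholipase that also hydrolyses 2-arachidonoylglycerol, led with 499, 800, 292, 676, 411 and 417 CPM. Daglb, which makes 2-arachidonoylglycerol, had 47.3 to 236 CPM and Mgll, which breaks it down, 0.25 to 184 CPM. Cnr2, the cannabinoid receptor of immune cells, had 27.9, 14.3, 7.20, 0.45, 4.52 and 12.5 CPM, all above 0 but low. Faah and Gpr55 had no count.

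General functions were unequal in level. Of 87 cytosolic ribosomal protein genes, 82 were counted in every library and 72 lay among the 2242 highest, yet none was among the 100 highest and together they took 1.57% ± 0.17 of the counts (SD, n = 6). Nuclear genes of oxidative phosphorylation had a median of 2.82 log2 CPM and mitochondrial ribosomal genes 1.34, and 49 of 81 and 23 of 77 were counted in every library. Per kilobase the ribosomal list kept the higher median, 7.24 against 2.83 and 0.63 log2 CPM per kb. Proteasome genes had a median of 4.16 log2 CPM, with 37 of 48 counted in every library and Psme1, an activator subunit, in front at 104 to 703 CPM. Among splicing factors, 42 of 52 were counted in every library, led by Srsf5 at 548 to 1588 CPM. Of 25 genes of actin and motility, all 25 were counted in every library. Lars2, a mitochondrial leucyl-tRNA synthetase, ranked 31 at 1392 to 2553 CPM.

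Most markers of other cells had low counts or none, with Stab1 and Slc1a3 as the clearest exceptions. Cnp, Mbp, Camk2a and Pecam1 came next by mean log2 CPM, each with a wide range between libraries. Of 1101 olfactory receptor genes, 1080 had no count in any library and none had a count in all, which gives the level of genes that should be silent. Summed CPM of 12 neuronal genes was 35.6 to 115, of 11 astrocyte genes 108 to 287, and of 10 oligodendrocyte genes 11.7 to 194. In the neuronal list Camk2a had a count in 5 libraries, at up to 90.7 CPM, and Rbfox1 in 6, at 0.12 to 48.5 CPM, while Nefl and Tubb3 had none. In the astrocyte list Slc1a3, a glutamate transporter, supplied most, at 82.5 to 232 CPM. Slc1a2 had a count in 5 libraries and a median of 21.5 CPM. Gfap reached 0.103 CPM in replicate 6 and had no count elsewhere, and Aqp4 had counts in 2 libraries. Cnp, a myelin enzyme, was counted in every library at 1.11 to 85.4 CPM, with a median of 34.5. Mbp, a myelin protein, had a median of 41.5 CPM and a count in 5 libraries, while Mog had a count in 1. Among endothelial genes Pecam1 was counted in all, at 0.19 to 135 CPM, and Cldn5 in none. Cdh5 reached 39.9 CPM in replicate 4, where Pecam1 had 104 CPM, but had no count in replicate 1, where Pecam1 was highest. Flt1 and Kdr were counted in 3 and 4 libraries, at up to 7.49 and 6.86 CPM. Of the border macrophage genes, Stab1, a scavenger receptor, was high at 295 to 996 CPM, while Mrc1, which defines these macrophages, had a median of 4.55 CPM and Lyve1 and Cd163 had no count. Summed CPM of monocyte and neutrophil genes was at most 13.9, of lymphocyte genes 41.3, of mural genes 12.4 and of erythroid genes 7.89. These markers' part in other values was not tested.

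**Figure D3:**
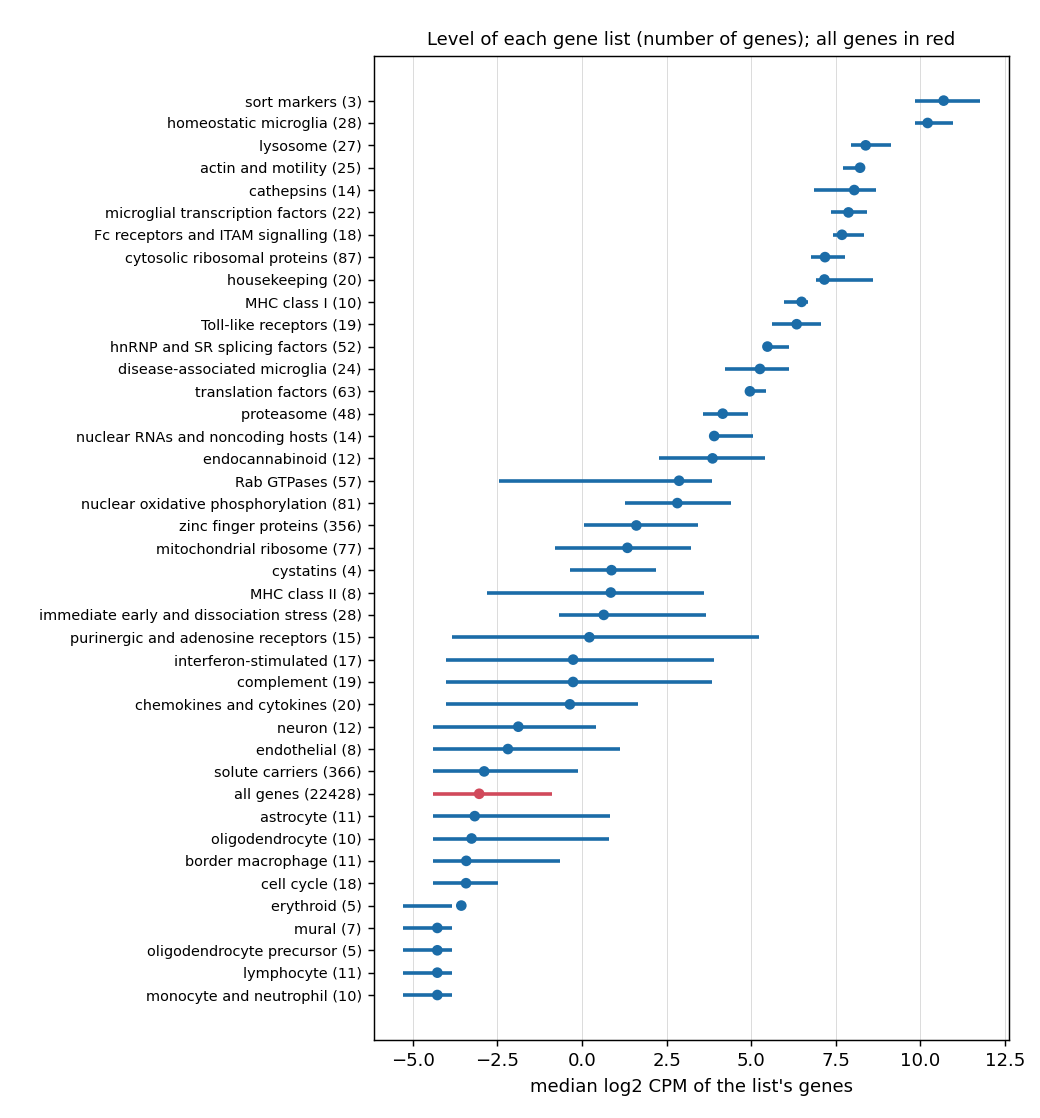
Median log2 CPM of each gene list over the 6 WT-Veh libraries; the dot is the median over genes of the mean log2 CPM, and the line runs from the lowest to the highest of the medians of single libraries, which need not enclose the dot. Sort markers and homeostatic genes lie at 10.68 and 10.21, all genes (red) at -3.03, and the lists of other cell types at or below about that level except neuron and endothelial. A gene with no count in any library has a mean of -4.27.

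The spread between libraries was wide and depended on level. Over 3372 genes counted in every library whose mean log2 CPM was 5 or more, the median SD of log2 CPM was 1.06, with quartiles of 0.74 and 1.47. The highest and the lowest library differed by a median of 7.13-fold, and by more than 10-fold for 1281 of them. Genes with a mean log2 CPM of 5 to 6 had a median SD of 1.44, those of 8 to 9 of 0.70 and those of at least 12 of 0.32. In 420 of the 3374 genes at that level, counted everywhere or not, a single library held over 50% of the CPM summed over the 6 libraries. That library was replicate 2 for 195 genes, replicate 1 for 84 and replicate 6 for none. In plain CPM it was replicate 2 for 107 genes, replicate 1 for 54 and replicate 6 again for none.

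**Figure D4:**
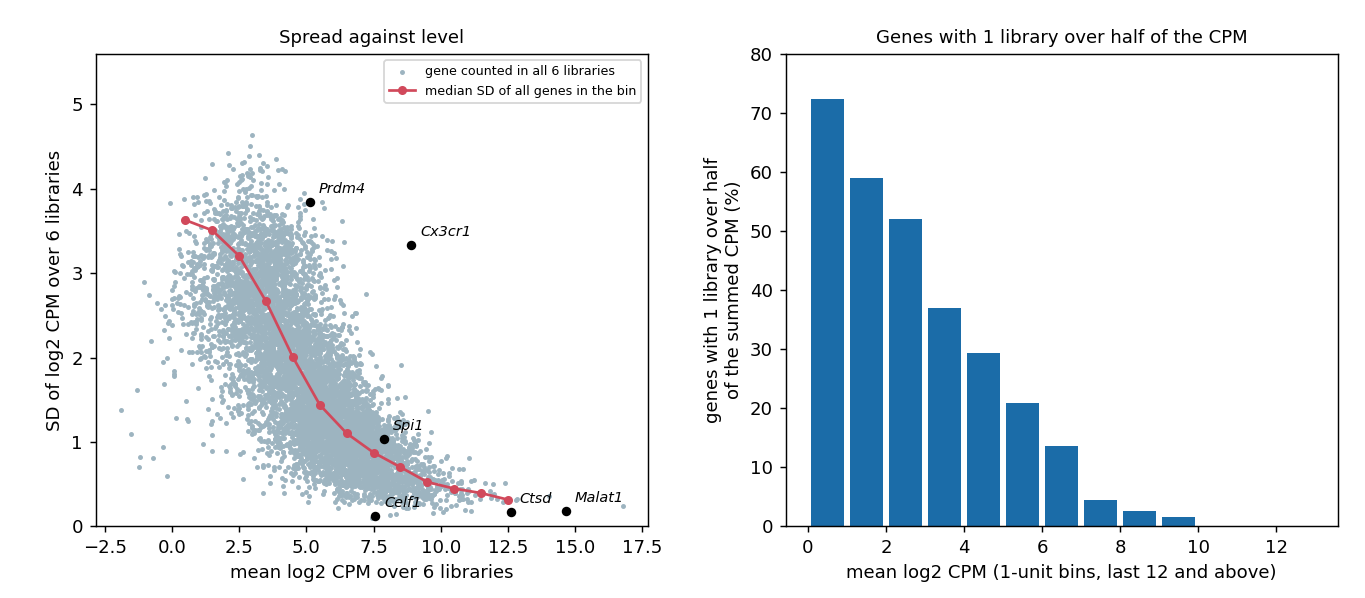
Left, SD of log2 CPM against mean log2 CPM for genes counted in all 6 WT-Veh libraries, with the median SD of all genes in each 1-unit bin in red and 6 genes marked. Right, the percent of genes in each bin with 1 library over 50% of the summed CPM, which goes from 72.3% at 0 to 1 to 0 at 10 and above; Cx3cr1 lies far above other genes of its level.

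The most even genes named here, chosen by their SD in scaled CPM, were less even in plain CPM, which that choice alone can give. Celf1, an RNA-binding protein, had 200, 193, 215, 187, 171 and 173 CPM, with an SD of 0.12 on the log2 scale, against 0.22 in plain CPM. Luc7l3, a splicing factor, had 237 to 308 CPM and Sat1, which acetylates polyamines, had 279 to 367 CPM. Gm12191 had the smallest SD, 0.09, against 0.30 in plain CPM, but its counts were not whole in any library, so reads were shared with other genes, and it overlaps Cnot6. The 3 uneven genes that follow were nearly absent from a single library. Nup62, a nuclear pore protein, had 680, 234, 65.1, 0.34, 29.3 and 147 CPM, and Atp6v0d1, a subunit of the vacuolar proton pump, had 37.8, 207, 165, 0.23, 471 and 68.0 CPM. Rcan1, a calcineurin regulator, had 0.49 CPM in replicate 2 and 119 to 679 CPM in the others. These genes are the extremes of a ranking by spread and are given as a description.

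Some genes were abundant in 1 library and without a count in another. There were 285 genes with a mean of at least 32 CPM and no count in at least 1 library. Lrrc4, a synaptic adhesion protein, had 872 CPM in replicate 2, 191 in replicate 3, and 0, 0.11, 1.41 and 37.1 CPM in replicates 1, 4, 5 and 6. Spock2, a matrix proteoglycan, had 739 CPM in replicate 3 and at most 5.52 CPM in the others. Tmc4, a membrane protein, had 798 CPM in replicate 1 and at most 27.3 CPM elsewhere. Cpox, an enzyme of heme synthesis, had 631 CPM in replicate 4 and at most 9.70 CPM elsewhere, and Traf7, a ubiquitin ligase, had 672 CPM in replicate 2 and at most 49.8 CPM in the others.

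Libraries differed in how often they held the extreme value. Among the 3374 genes, replicate 2 was highest for 1010 and lowest for 709, and replicate 6 was highest for 77 and lowest for 346. In plain CPM replicate 2 was highest for 721 and lowest for 927, and replicate 6 was highest for 267 and lowest for 108. Among the 100 highest genes, replicates 1 and 2 were highest for 39 and 40, and replicate 6 was lowest for 40. In plain CPM these counts were 26, 20 and 5, and the share of counts in the 100 highest genes was largest in replicate 6, at 34.6%. Across the genes of that level, Spearman's rho between pairs of libraries was 0.364 to 0.677, with a median of 0.464 over 15 pairs, genes not being independent replicates. The 5 pairs with replicate 6 had rho of 0.497 to 0.677, and the 10 pairs without it 0.364 to 0.499.

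**Figure D5:**
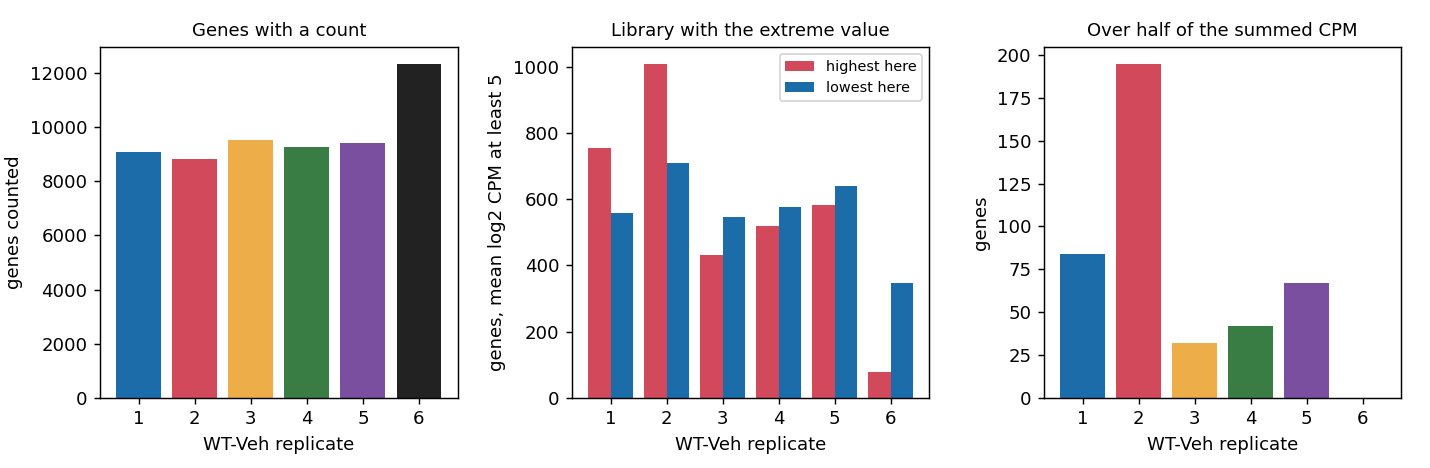
Left, genes with a count in each of the 6 WT-Veh libraries, from 8814 in replicate 2 to 12350 in replicate 6. Middle, genes whose mean log2 CPM was 5 or more for which the library is highest (red) or lowest (blue). Right, those for which it holds over 50% of the summed CPM, 195 in replicate 2 and 0 in replicate 6 (107 and 0 in plain CPM).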

How the data were processed

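Reads were 150 bp paired-end libraries from low-input amplified RNA. The study names Smart-seq2 in its results and series description, while its methods and the labels name a Nugen Ovation kit. The authors aligned reads to GRCm38 (mm10) with STAR, counted them with RSEM 1.3.0 without using strand, kept genes above a TPM minimum, and deposited log2 CPM values in the form voom gives, with 0.5 counts added and a scaled library size. Expected counts were recovered from these deposited values in steps of 0.01, and 94.4% of the counts above 0 were whole within 0.005. Scaling factors were 0.77 to 1.25. The authors also deposited a read summary with whole-number counts (total, mapped, exonic, intronic, intergenic) and fractions formed from them. The deposited surrogate variable scores and the deposited rDNA column, whose unit is not stated, were not used here.

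The 6 WT-Veh libraries were described without a test, since no groups were compared, and the other 12 libraries and 4 outliers that the authors left out are not analysed here. Error is the SD between libraries, and p-values are not given. Members and gene lists were chosen with earlier results of these data known. Named genes are the 30 highest by mean log2 CPM, the 15 highest per kilobase, the 10 with the smallest and the 10 with the largest SD, the 10 highest in 1 library with no count in another, and leading members of 41 lists, with all members for sort markers, homeostatic genes, transcription factors and other cell types; not all are described, and some genes are not reported here, though counted in the lists. Lengths and coordinates are from GENCODE M21 on GRCm38, with 21176 symbols matched directly, 890 through an older symbol and 362 unmatched. Promoters are from RefSeq on GRCm38.p6. Alternatives covered count minimums, scalings, pseudocounts, filters and each library left out. Recovery of counts was tested on simulated data. Computation used pandas 2.3.3 and numpy 2.4.6 in Python 3.11.15, and plots matplotlib 3.10.9.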

Additional observations from a re-analysis of the deposited data

Results flagged for a closer look

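Of 116 values compared across the 6 libraries, 10 had an extreme library far from the others (a gap to its nearest neighbour above 0.625 of the range), where chance gives about 1 in 20. Of the 68 genes among the 116 values, 4 were flagged, which is near that 1 in 20. The 116 values are not independent, since some are shares or counts that overlap. In replicate 2, Sall1 was high at 11.76 log2 CPM, Mef2a at 10.43, Zeb2 at 10.57 and Sall3 at 9.62. In plain CPM, an alternative chosen after seeing the data, the gap over the range on the log2 scale was 0.641 for Sall3 but 0.527 for Sall1, 0.618 for Zeb2 and 0.469 for Mef2a, all below 0.625, and for Mef2a replicate 2 lay inside the range of the others. Sall3 had 788 scaled CPM in replicate 2 and 121 to 239 elsewhere, or 606 and 122 to 217 in plain CPM.

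Among library measures, the intergenic share of mapped reads was 10.48% in replicate 5 and 8.58% to 9.26% in the others. Replicate 6 had 12350 genes with a count, and 1224 that were counted there only. Among list shares, cystatins took 2.29% of the counts in replicate 1 against 1.38% to 1.68% elsewhere. MHC class I genes took 0.575% in replicate 6 against 0.288% to 0.392%, and solute carriers took 1.59% in replicate 2 against 1.37% to 1.45%.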

How the results depend on the processing

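The number of genes counted in every library was 5470 with at least 3 counts and 4573 with at least 10 counts. The share of the 100 highest genes was 24.3% with Rn45s left out of both sums. The median SD of log2 CPM was 1.61 with no minimum level, 0.90 with a minimum of 6, 2.29 over genes counted in any library and 0.84 as a scaled median absolute deviation, and 0.94 (without replicate 2) to 1.12 (without replicate 6) with each library left out. The median rho was 0.700 over genes counted in any library, and 0.593 over the 5 pairs with replicate 6. That genes counted in any library give a higher rho and a higher SD was not tested for cause. Of the 100 highest genes, 53 were shared per kilobase and 94 to 97 with each library left out. The count of genes with a single library over 50% of the summed CPM was 543 to 716 with each library left out, where fewer libraries make that share easier to reach, and this choice was made after seeing the data, as were the pairs with replicate 6 and its expected gene number. List medians per kilobase moved beyond the spread for 23 of 41 lists and as log2 of mean CPM for 21 of 41, and stayed within it in 242 of 246 cases with a library left out. No paired analysis was possible because no groups were compared. Replicate 5 had the fewest total counts and replicate 2 the fewest genes counted, and at the total of replicate 5 replicate 6 would be expected to hold 12110 genes. With plain library totals, also chosen after seeing the data, replicate 2 was highest for 20 rather than 40 of the 100 highest genes, and replicate 6 was lowest for 5 rather than 40 and highest for 7 rather than 2.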
